A study of Mus musculus with 16 samples.

Results

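Cytosolic ribosomal protein genes, which encode the proteins of the ribosomes of the cytoplasm, were taken from nuclear RNA-seq of mouse ESCs. Every gene whose symbol starts with Rpl or Rps and a number, or is Rplp0, Rplp1, Rplp2 or Rpsa, was kept, and the Rps6k kinases and pseudogenes were left out. The rule gave 77 genes of 19338 symbols, and each was represented by its entry with the highest level. Of these, 39 encode proteins of the large subunit and 28 of the small subunit, and 10 are paralogs, retrogenes or genes that share only the name. The libraries came from 4 groups of 4, or 16 in all. The study removed the Polycomb complexes PRC1, which places ubiquitin on histone H2A, and PRC2, which methylates H3K27. Wild-type cells were the untreated Ring1-/-;Rnf2 fl/fl line, in which Ring1 is deleted and Rnf2, the gene for RING1B, is floxed. PRC1-null cells were this line after 800 nM 4-hydroxytamoxifen for 72 h. PRC2-null cells were untreated cells of a line with Eed also deleted by CRISPR, a single clone, and PRC1/2-null cells were that clone after the same tamoxifen treatment. All 4 groups therefore lack RING1, and the cells of the Eed-/- clone were used at passages 30 to 40 and those of the parental line at passages 25 to 35. RNA was taken from nuclei and depleted of rRNA, so that transcripts still being made or not yet exported make up more of it than of whole-cell RNA.

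Each entry has 1 level, the mean normalized count that the authors computed over all 16 libraries. Values per library or per group were not used here, and the depth of the libraries is unknown. No level below therefore has an error, the groups are not compared, and whether genes next to each other in order differ beyond replicate spread cannot be said. Mean normalized counts grow with the length of a transcript, so levels of different genes are compared per kilobase (kb), mainly of exons. Whether the authors counted reads over exons or over whole genes is not given in the sources used here. In nuclear RNA, which holds unspliced transcripts, this decides which length fits, so values per kb of exons hold only for counting over exons, and values per kb of gene span are given beside the main ones. Marker genes of ESCs were present, with mean normalized counts from 568 (Utf1) to 5687 (Esrrb) for the 9 of 10 listed markers that were found. The 10 fibroblast or feeder markers ranged from 0.283 to 965 with a median of 60.9, and the highest was Fbln1. Alas2, a red cell marker, was at 1.83. The part of other cell types in the levels below was not tested.

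A ribosome holds a small subunit that reads the mRNA and a large subunit that joins amino acids. Nearly all ribosomal proteins are present in a single copy per ribosome, and the stalk proteins P1 and P2 are known exceptions. Their genes are short, are transcribed in every growing cell, and many carry small nucleolar RNAs (snoRNAs), the guides of rRNA modification, in their introns. A known feature of their mRNAs is a 5′ terminal oligopyrimidine tract, a C at the first base followed by a run of C and T, through which mTOR signalling controls translation. Many processed pseudogenes and some expressed retrogenes were copied from these mRNAs.

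The tract at the start could be read for 59 of the 77 genes, those with a start in the RefSeq promoter table (GRCm38.p6, the mm10 assembly). Each sequence below runs 5′ to 3′ from 20 bases before the annotated start to 10 bases from it, and capitals mark a tract of C followed by at least 4 pyrimidines at the start. The first 6 are the genes with the highest mean normalized counts among those with a listed start, and are shown because they show how seldom the annotated start itself carries the tract.
Rpl4 (chr9:64173367-64173396, plus strand): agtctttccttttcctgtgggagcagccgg
Rps3 (chr7:99483700-99483729, minus strand): gaacacttgcaagggtcgccgcgctgcgcg
Rplp0 (chr5:115559447-115559476, plus strand): acgtcgtcttcgggtttcgaggaccgcctg
Rpl13a (chr7:45128736-45128765, minus strand): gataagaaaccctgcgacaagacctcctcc
Rps15a (chr7:118116138-118116167, minus strand): gcccactctctttctgccatCTTCCCTCgc
Rpsa (chr9:120127746-120127775, plus strand): tggctgtgggttatttaaggacgtcatttc
Rps15a alone of these 6 has a tract at the start in the RefSeq table. At the start of the GENCODE transcript, which can lie elsewhere, Rpl4 has one and Rps15a has none. In Rpl4 a run of pyrimidines lies upstream of the annotated start.

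The longest tracts belonged to other members, Rpl15, Rpl35, Rps10, Rps18 and Rps6, which show the feature in its clearest form. All sequences below were chosen for display after they were seen. Rpl28 has a run of 8 bases, as have Rps15a above and Rpl38 and Rpl35a, which are not shown. Rps27 with its retrogene Rps27rt shows a tract that is present in both.
Rpl15 (chr14:18270977-18271006, minus strand): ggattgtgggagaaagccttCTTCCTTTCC
Rpl35 (chr2:39005122-39005151, minus strand): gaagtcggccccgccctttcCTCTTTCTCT
Rps10 (chr17:27635235-27635264, minus strand): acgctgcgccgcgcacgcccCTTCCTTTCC
Rps18 (chr17:33955656-33955685, minus strand): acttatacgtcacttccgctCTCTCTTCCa
Rps6 (chr4:86857358-86857387, minus strand): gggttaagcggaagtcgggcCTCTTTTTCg
Rpl28 (chr7:4792945-4792974, plus strand): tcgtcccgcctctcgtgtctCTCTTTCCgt
Rps27 (chr3:90213639-90213668, minus strand): acaggatttccgctttcgctCCTTTCCggc
Rps27rt (chr9:114982730-114982759, minus strand): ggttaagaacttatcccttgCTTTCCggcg
The run of pyrimidines counted from the start is 13 bases in Rpl15, 11 in Rpl35 and 10 in Rps10. Rps27 itself has no entry in the tables and only its sequence is shown.

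Every member was detected, and most stood well above the typical gene when length was taken into account. The median of the 77 mean normalized counts was 1072, with quartiles of 625 and 1871, beside a median of 224 over the 18452 genes with a mean above 0. A mean normalized count of at least 100 was reached by 74 of the 77 (96.1%, beside 60.4% of all genes) and one of at least 1000 by 43 (55.8%, beside 23.8%). Per kb of exons the median was 1186 for the 76 members with a gene model and 89.2 over all genes. Members therefore lay at a median percentile of 77.4 by mean normalized count and of 95.1 per kb of exons. Per kb of gene span their median was 327, beside 11.4 over all genes. Of the 77 members, 13 were among the 10% of genes with the highest mean normalized count, whereas 57 were among the 10% with the highest level per kb of exons and 71 per kb of gene span. The gap goes with their size, since their exons sum to a median of 834 bases and their genes span 3232 bases, beside 2604 and 19644 bases over all genes. Together the members held 0.659% of the summed mean normalized counts.

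**Figure D1:**
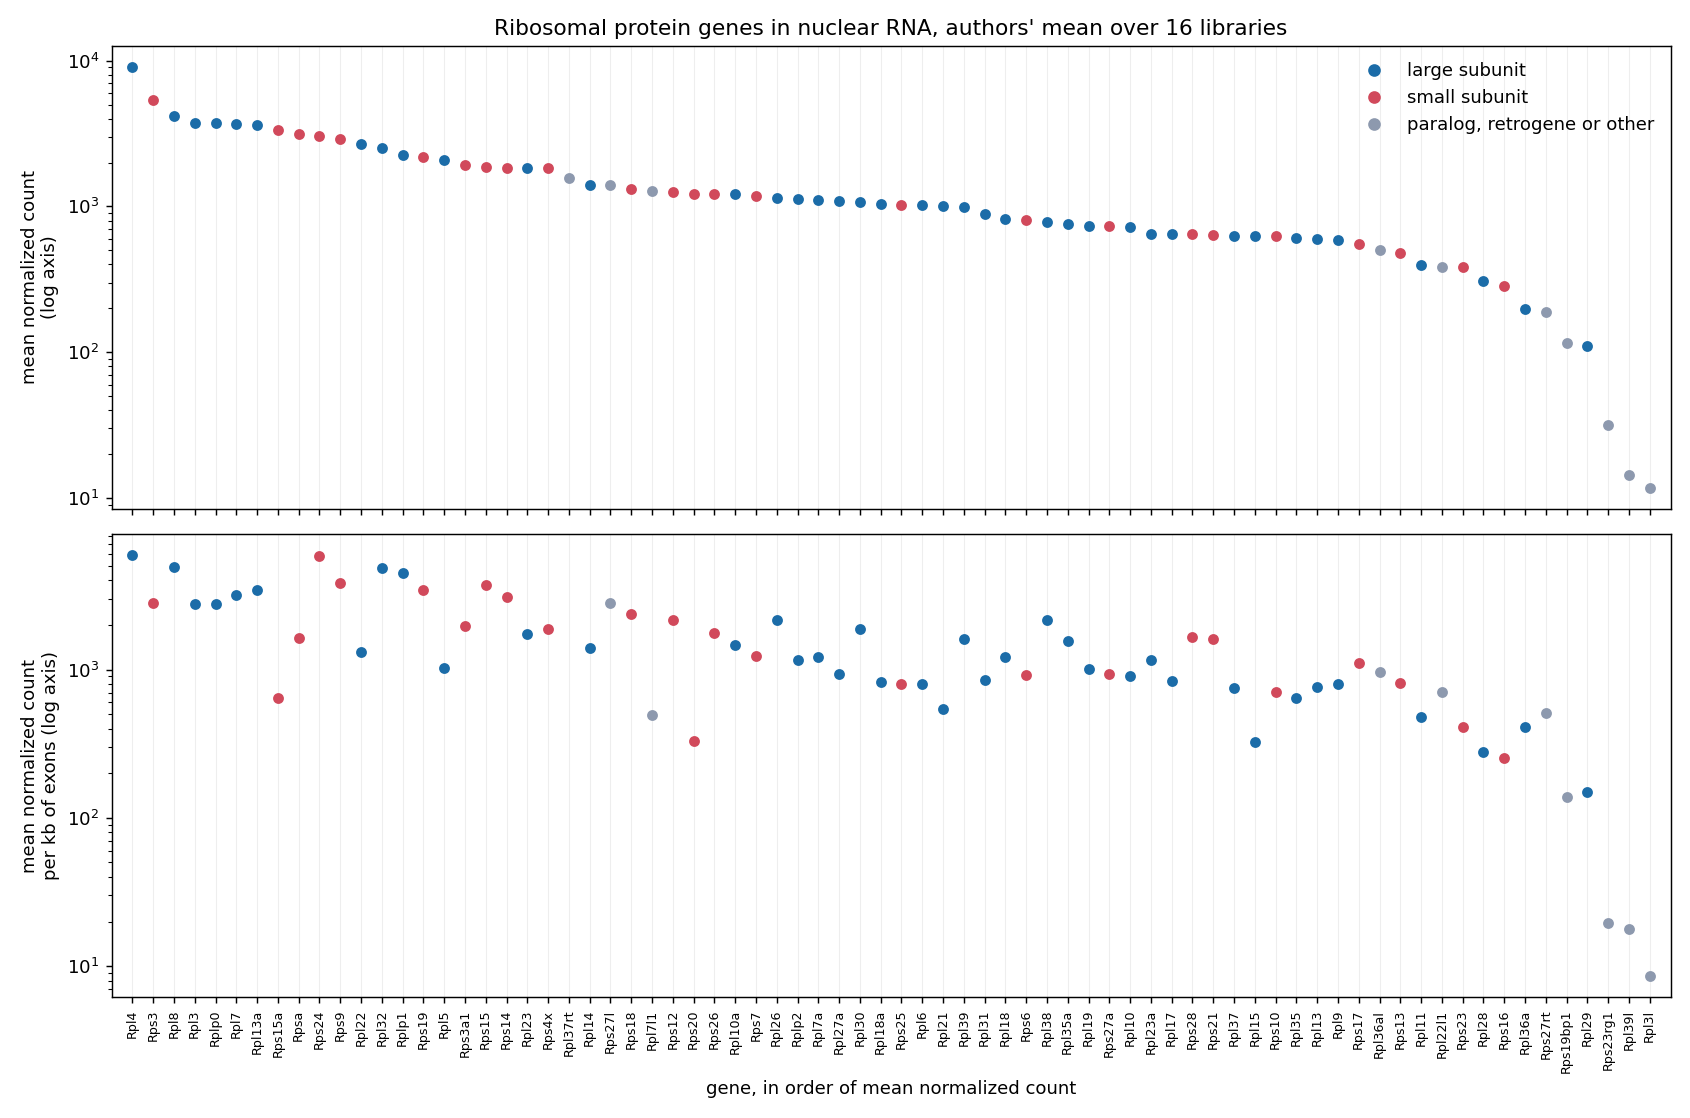
Mean normalized count over 16 libraries (upper panel) and the same per kb of exons (lower panel) for 74 of the 77 cytosolic ribosomal protein genes, both on log axes, with genes in order of mean normalized count and coloured by role. Rpl4 is highest in both panels, at 9052 and 5886, and the paralogs Rpl3l and Rpl39l are lowest; Rpl37rt has no gene model and is missing from the lower panel, and the 3 genes not plotted are among those not reported here and were left out regardless of their level.

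Among proteins of the large subunit, Rpl4 (NM_024212, chromosome 9 from 64173375 to 64178666, plus strand of mm10) had the highest level of all members on 2 scales, 9052 as a mean normalized count and 5886 per kb of exons. It encodes a protein with a long extension into the wall of the peptide exit tunnel, and it made up 7.97% of the members' summed mean normalized counts. Per kb of gene span it stood at 1711, below Rpl8 at 1859 and Rplp1 at 1787. Rpl8 (chromosome 15), a protein near the peptidyl transferase centre, had a mean normalized count of 4158 and 4886 per kb of exons. Rpl3, which also reaches towards that centre, was at 3762 and 2785 per kb. Rpl7 and Rpl13a had mean normalized counts of 3678 and 3596, and 3163 and 3434 per kb of exons. Rpl32 was at 4873 per kb of exons, where 3 members, Rpl4, Rps24 and Rpl8, stood higher.

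The stalk and the 5S particle give 2 sets of partners that are built into the ribosome together. The stalk recruits translation factors and consists of P0 with P1 and P2. Rplp0 had 2768 per kb of exons, Rplp1 4510 and Rplp2 1164, so that of the 2 partners bound to P0 the first had the higher level on this scale. Rpl5 and Rpl11, whose proteins bind 5S rRNA and also hold MDM2, the ubiquitin ligase of p53, had 1021 and 476 per kb of exons. Per kb of coding sequence the values were 2343 for Rpl5 and 742 for Rpl11.

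Genes of the small subunit were somewhat higher per length than those of the large subunit, with broad overlap. Their median was 1642 per kb of exons (28 genes, 255 to 5865) beside 1164 for the large subunit (39 genes, 150 to 5886), and per kb of gene span the medians were 417 and 297. Rps3 (NM_012052, chromosome 7 from 99477896 to 99483738, minus strand of mm10), which lies at the mRNA entry channel and also has a KH domain, had a mean normalized count of 5368 and 2813 per kb of exons. Rps24 had the second highest level per kb of exons of all members, 5865, at a mean normalized count of 3044. Rpsa, which encodes the protein also known as the laminin receptor, had a mean normalized count of 3161 and 1631 per kb of exons. Rps15a had a mean normalized count of 3346 but only 646 per kb of exons. Its gene model counts 5179 bases of exons for 390 bases of coding sequence, and per kb of coding sequence it was the highest member, at 8579. Rps20 likewise has 3706 bases of exons for 357 of coding sequence, with 328 per kb of exons and 3406 per kb of coding sequence.

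The canonical members with the lowest mean normalized counts were Rpl29, Rpl36a and Rps16. Rpl29, a protein known to affect the rate of protein synthesis and growth in mice, had a mean normalized count of 110 and 150 per kb of exons. Rps16 had 283 and 255 per kb of exons, Rpl28 310 and 280, and Rps23, a protein of the decoding centre, 387 and 413. Rpl36a was at 199 and 411 per kb. The 67 canonical genes spanned 39.3-fold per kb of exons, 37.5-fold per kb of coding sequence and 82.5-fold as mean normalized counts. The quartiles were 805 and 2262 per kb of exons, and 40 of the 67 were within 2-fold of the median of 1296.

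Of 79 genes in the canonical set written for this work, 77 follow the naming rule and 67 were found. Rpl12, Rpl24, Rpl27, Rpl34, Rpl36, Rpl37a, Rpl41, Rps2, Rps27 and Rps29 were not analysed here. Fau encodes RPS30 as a fusion with a ubiquitin-like protein and falls outside the rule by name. Its mean normalized count was 149 and its level per kb of exons 243. Rps27a, a member that encodes a fusion with ubiquitin, had 931 per kb of exons. Rack1, which encodes a scaffold protein on the small subunit and is named otherwise, had a mean normalized count of 7623 and 5268 per kb of exons, and has a tract at its annotated start.

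Of 5 listed paralog pairs with levels per kb of exons for both genes, the paralog was below the canonical gene in 4 and above it in 1. Rpl3l, the paralog of Rpl3 of heart and skeletal muscle, had a mean normalized count of 11.8, the lowest of all members, and its level per kb of exons was 8.58 beside 2785 for Rpl3. Rpl39l, a paralog of Rpl39 best known from the testis, was at 14.4, or 17.9 per kb of exons beside 1612 for Rpl39, a 90.1-fold difference. Rpl22l1, a paralog whose level is known to respond to RPL22, had 701 per kb of exons beside 1314 for Rpl22, a ratio of 1.87. As mean normalized counts these 2 genes were 387 and 2695, and Rpl22 has 2051 bases of exons beside 552 for Rpl22l1. Rpl7l1, whose product acts in the assembly of the large subunit, was at 1283, or 492 per kb of exons beside 3163 for Rpl7. In the pair of Rpl36a and Rpl36al the paralog was the higher one. Rpl36al had 963 per kb of exons and Rpl36a 411, so that Rpl36al was 2.34-fold higher. Rpl36a has 84.4% of its 80-base windows in another gene and Rpl36al 36.2%, and the part of this in the difference was not tested. Rps27l, a p53-responsive paralog of Rps27, had a mean normalized count of 1405 and 2816 per kb of exons, and Rps27 was not analysed here. Rpl10 and Rps4x were at 901 and 1872 per kb of exons, and their paralogs Rpl10l and Rps4l were not analysed here.

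The paralogs differ at their annotated starts, which are shown for the pairs where the reference gives a start for both genes.
Rpl22 (first start, chr4:152324416-152324445, plus strand): atcagcgctgcttctggaatgttccagctc
Rpl22l1 (chr3:28805488-28805517, plus strand): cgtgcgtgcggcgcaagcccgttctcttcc
Rpl36a (chrX:134585634-134585663, plus strand): aggaagtgcacccaggcaccgcctataaac
Rpl36al (chr12:69184058-69184087, minus strand): gttcgcattcccgtcgctcaggttcagttc
Rpl39 (chrX:37085213-37085242, minus strand): ccccccctaagctccgcctctagcgacttc
Rpl39l (chr16:10170208-10170237, plus strand): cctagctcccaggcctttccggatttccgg
Rps27l (first start, chr9:66946066-66946095, plus strand): cctctccactcctccccgccgcctctatcc
None of these 7 windows has a tract at the start, while Rps27, the partner of Rps27l shown above, has one of 7 bases. The Rpl22 start shown, base 152324436, lies upstream of the gene model used for its level, which begins at 152325742. A second listed start of Rpl22, base 152325726, lies nearer to that model and has no tract either.

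The 4 other members that are not canonical are copies or share only the name. Rpl37rt, a retrogene of Rpl37, had a mean normalized count of 1570, above that of Rpl37 at 627. It has no gene model of the annotation used, so the 2 genes are not compared per kb. It has 2 entries, which sum to 3114, and without a model its share of repeated windows is unknown. Rps27rt, an intronless retrogene overlapped by Osbpl10 on the opposite strand, was at 190, or 508 per kb of exons, and 90.2% of its 80-base windows are found in another gene. Rps23rg1, a retrogene-derived gene, was at 31.9 (19.7 per kb of exons). Rps19bp1 encodes a protein that binds RPS19 and is no ribosomal protein, and was at 116 (138 per kb).

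The place of the cytosolic ribosomal protein genes beside other gene lists depended on the length used. On all 4 scales used, however, they stood above the mitochondrial ribosome and the respiratory chain. As mean normalized counts, with no length taken into account, their median of 1072 lay below those of the translation factors (4052) and the ribosome assembly factors (1597), and above those of the respiratory chain subunits (564) and the mitochondrial ribosomal proteins (380). Per kb of exons their median of 1186 lay near that of 36 translation factors (1282). It lay above those of 82 respiratory chain subunits (731), 37 ribosome assembly factors (568) and 72 mitochondrial ribosomal proteins (269). Per kb of coding sequence the medians were 2308 for the members, 2965 for the translation factors, 1252 for the respiratory chain, 891 for the assembly factors and 554 for the mitochondrial ribosome, in the same order. The medians of gene span differ more, 3232 bases for the members and 16288 for the translation factors. Per kb of gene span the members' median was 327 and that of the translation factors 189. No test was made between these lists, whose genes share the same libraries. The translation factor list holds initiation, elongation and release factors and also Pabpc1. The respiratory chain list includes ATP synthase genes, among them its highest gene, Atp5b. It also includes genes with hardly any counts, such as Cox8b with a mean normalized count of 0.194. The assembly factor list includes genes of RNA polymerase I transcription, such as Polr1a, Rrn3 and Ubtf.

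**Figure D2:**
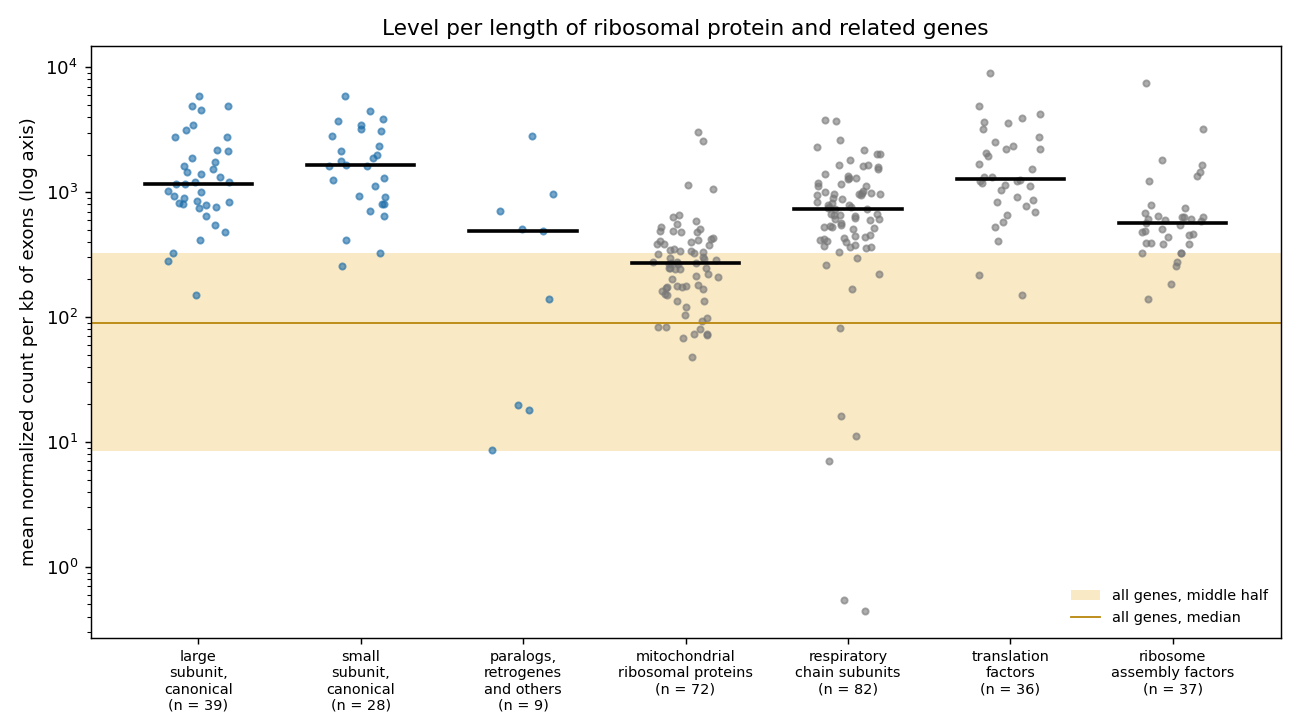
Mean normalized count per kb of exons on a log axis for canonical ribosomal protein genes of each subunit, the other members, and 4 other gene groups; each point is a gene, black bars are medians, and the band runs between the quartiles of all genes. Both subunits have medians above 1000 per kb, 1164 and 1642, while the mitochondrial ribosome is at 269 and all genes at 89.2.

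Many copies of these genes lie elsewhere in the genome, so that sequencing reads of 80 bases may not have a single origin. The reads were paired-end, whereas each window stands for 1 read alone and covers exons only. The share of repeated windows is therefore not the share of read pairs without a single origin. Of the 76 members with a gene model, 71 had at least 1 window of 80 bases that is found unchanged in another annotated transcript, with a median of 38.6% of windows. The median was 0% for mitochondrial ribosomal proteins, respiratory chain subunits and assembly factors, and 1.08% for translation factors. Over 50% of the windows were repeated in 25 members, up to 91.8% in Rpl10, 90.4% in Rpl9 and 90.2% in Rps27rt. Rpl21 shared windows with 57 annotated pseudogenes and Rpl7a with 55. At the other end, Rps3 had no repeated window.

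Median levels were lower for canonical genes with over 50% of windows repeated, but across genes the relation was weak per kb of exons. The 24 canonical genes with over 50% of windows repeated had a median of 1058 per kb of exons (150 to 2785), and the 43 others 1631 (255 to 5886). The medians were 1370 and 3509 per kb of coding sequence, and 269 and 395 per kb of gene span. None of the 10 highest canonical genes per kb of coding sequence had over 50% repeated windows, beside 6 of the 10 lowest. Per kb of exons it was none of the 10 highest and 3 of the 10 lowest, beside 35.8% of all canonical genes. Across the 67 canonical genes the share of repeated windows and the log2 level per kb of coding sequence had a Pearson r of -0.62 and a Spearman rho of -0.65. With the level per kb of exons they were -0.26 and -0.27. These are descriptions across genes, which share the libraries, and both measures depend on the length of the gene model. Rpl3 is among the exceptions, with 82.8% of windows repeated and 2785 per kb of exons. Rps12, with 82.4% and 2153, and Rps18, with 74.0% and 2355, also lay above the median of 1631 of the 43 others. How the authors treated reads with several alignments is not given in the sources used here, so the part of lost reads in these differences was not tested.

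**Figure D3:**
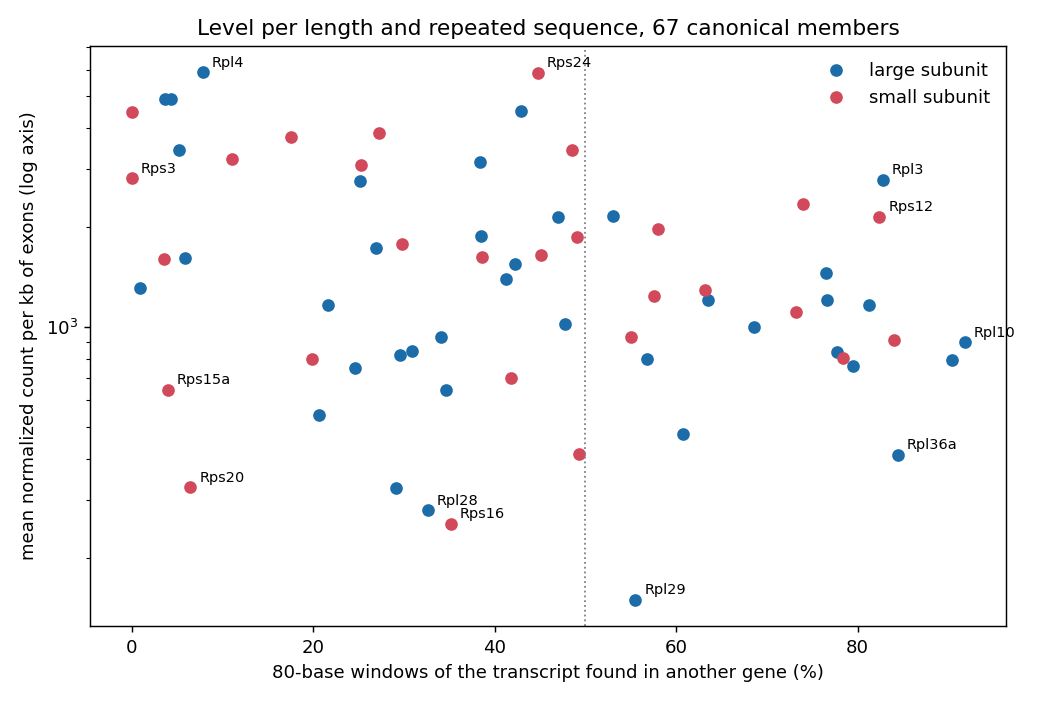
Share of 80-base windows of each canonical transcript that is found in another gene (horizontal axis, %) and mean normalized count per kb of exons (vertical log axis), coloured by subunit, with the dotted line at 50%. The 24 genes right of the line reach at most 2785 per kb, while those left of it reach 5886; Rps15a and Rps20 are low on the left and have long exons in their gene models.

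Within the bounds of 28 members lie annotated snoRNA genes on the same strand, 56 in all, and all 28 members are canonical. Genes annotated as small Cajal body RNAs would be counted with them, and whether each lies in an intron was not checked. Rpl4 holds 5, and Rpl13a carries 4, which are Snord32a, Snord33, Snord34 and Snord35a. The hosts had a median of 1186 per kb of exons and the 39 other canonical genes 1394, while per kb of gene span the medians were 358 and 325. The order of these medians thus depends on the length used. Another gene lies on the opposite strand of 21 members, such as Syngr1 for Rpl3 and Ube2s for Rpl28. The libraries were made with a directional kit, which keeps the strand, but whether the counting used it is not given in the sources used here, and the values of these 21 are uncertain for that reason.

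The annotated starts of the members held pyrimidine tracts more often than those of other genes. A tract at the start was found in 13 of the 59 members with a listed start (22.0%), beside 2.94% of 14549 measured genes and 3.01% of 27025 genes in all. A gene counted when any of its listed starts had the tract. Tracts with at least 7 pyrimidines after the C were found in 9 members (15.3%) and in 0.955% of measured genes. When the tract could begin up to 5 bases from the annotated start, 27 members (45.8%) and 22.8% of measured genes had it. The 12 canonical genes with a tract were Rps15a, Rpl14, Rps18, Rplp2, Rps6, Rpl38, Rpl35a, Rps21, Rpl15, Rps10, Rpl35 and Rpl28, and Rps27rt was the other member. At the start of the GENCODE transcript a tract was found in 8 of 76 members (10.5%), beside 2.25% of 18242 genes. These were largely other genes, since 2 members, Rps21 and Rps27rt, had a tract by both annotations, 15.4% of those by RefSeq and 25.0% of those by GENCODE. Which members carry a tract thus depends on the annotated start. In the RefSeq table a tract at the start was found in 2 of 27 translation factors, Eif2s3x and Eif3f, in 3 of 66 respiratory chain genes, and in none of 63 mitochondrial ribosomal protein genes and none of 33 assembly factor genes.

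Short motifs were counted on both strands of the 300-base window around each start, and none of them contains another. The core of ETS family sites, CCGGAA, was found in 31 of 59 members (52.5%), beside 23.9% of measured genes. It was as frequent in genes of the mitochondrial ribosome, in 37 of 63 (58.7%). The palindrome TCGCGA was found in 12 members (20.3%), all canonical, beside 4.50% of measured genes and 2 of 63 mitochondrial ribosomal protein genes. AAGATGGC, a core of YY1 sites, was found in 5 members (8.47%) beside 4.11%, and TATAAA in 6 (10.2%) beside 10.6%. A match to these letters is no proof of a bound factor.

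**Figure D4:**
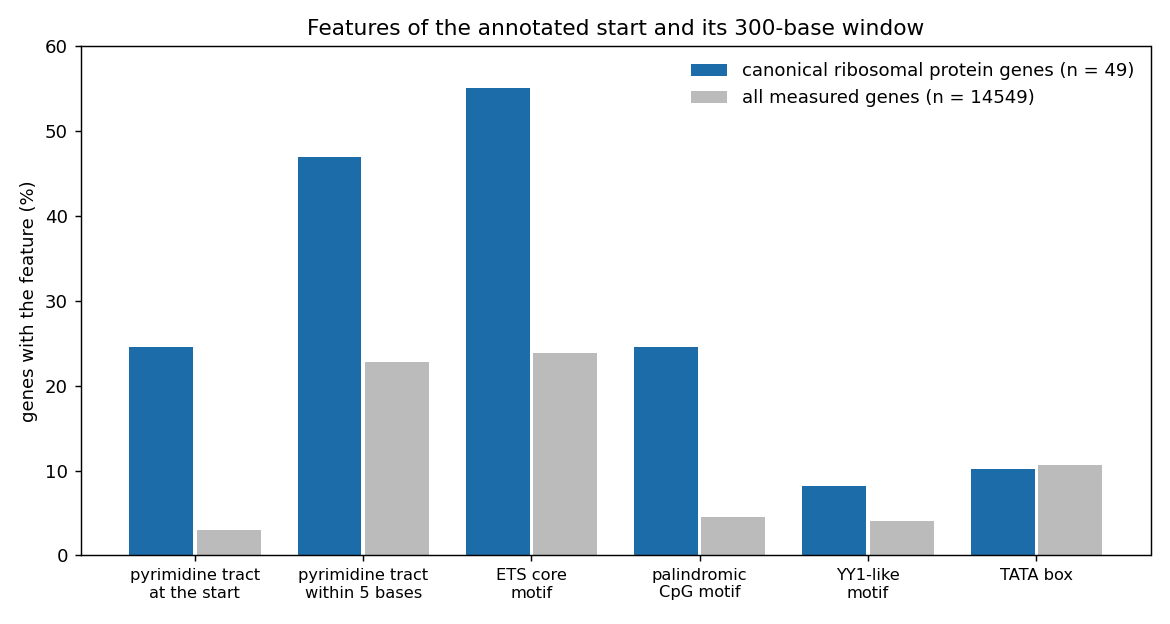
Share of genes (%, axis from 0) whose annotated start or 300-base window has each sequence feature, for canonical ribosomal protein genes with a listed start (blue) and all measured genes (grey). Tracts at the start are found in 24.5% of the canonical genes and 2.94% of all measured genes. The letters TATAAA, labelled TATA box, are at 10.2% and 10.6%. They were counted at any place and on either strand of the window, so the label does not mean a TATA box at its usual place.

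Levels of canonical genes with and without these features overlapped. The 12 canonical genes with a tract at the start had a median of 1039 per kb of exons (280 to 2355), beside 1314 (255 to 5886) for the 37 without. Per kb of coding sequence the medians were 2231 and 2440. With CCGGAA the median was 1209 per kb of exons (27 genes) and without it 1431 (22 genes). With TCGCGA it was 1554 (12 genes) and without it 1209 (37 genes). No error can be given for these medians over samples.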

How the data were processed

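Nuclear RNA of mouse ESCs was measured in 4 groups of 4 libraries. Reads of rRNA were filtered out by the authors (Bowtie 2), who mapped the rest to mm10 (STAR), dropped PCR duplicates (SAMtools) and ran DESeq2 on a nonredundant gene set. Counter, counting over exons or whole genes, strand setting and treatment of reads with several alignments are not given in the sources used here. The deposited signal used is the authors' mean normalized count over all 16 libraries, and it was identical in the 3 tables. Their other columns (log2 fold changes, standard errors, statistics and p-values of each null group against wild type) hold the authors' own comparisons and were not used, so no group was compared.

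Of 20633 entries, 20560 matched a symbol (RefSeq 20450, GENCODE 110), and the entry with the highest mean was kept. Lengths were those of the GENCODE M21 transcript paired with the RefSeq entry, the longest one where several were paired. Levels per kb and shares of repeated windows depend on this choice, and another choice of transcript was not tested. Of the members, 2 had several entries. Windows of 80 bases were compared with all GENCODE transcripts outside the gene itself. The counting of windows and tracts was tested on simulated data. Python 3.11.15 with pandas 2.3.3, numpy 2.4.6, scipy 1.17.1 and matplotlib 3.10.9 was used. Named genes were the 10 highest and 10 lowest by mean, the 5 highest and 5 lowest per kb of exons, members of paralog pairs, canonical genes not found, and Fau and Rack1, and others were chosen after their values were seen. A few genes that the rule names are not reported here. Members and lists were chosen with earlier results of these data known.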

Additional observations from a re-analysis of the deposited data

How the results depend on the processing

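The median mean normalized count of the members stayed at 1072 when all entries of a symbol were summed and when means under 10 were left out. It was 1104 over canonical members and 1211 without members with over 50% repeated windows. Their median percentile was 71.2 among genes with a mean of at least 10 and 95.1 when ranked per kb of exons. The median level per kb was 327 with gene span and 2308 with coding sequence as the length. The share of the summed means was 0.623% when all entries of a symbol were summed. Members among the highest 10% of genes numbered 57 per kb of exons, 71 per kb of gene span and 47 per kb of coding sequence, so this count depends on the length used. Tracts at the start numbered 27 within 5 bases of it and 9 with at least 7 pyrimidines after the C. At the start of the GENCODE transcript they numbered 8 of 76 (10.5%, beside 2.25% of all genes), and 2 of the 13 were found again there. The ranking per kb of exons, the length of coding sequence, the GENCODE start and the exclusion of repeated members were chosen after seeing the data. No paired analysis was possible because the tables used hold no values per library, and for the same reason no library could be left out. Depth per library is unknown, so no counting interval is given.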
